A study of Mus musculus with 12 samples.

Results

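Expression of 10 genes of myoblast fusion and adhesion was followed in mouse C2C12 cells after silencing of *Zbed6*. The genes were *Cdh15*, *Cdh2*, *Ncam1*, *Itga7*, *Vcam1*, *Adam12*, *Dysf*, *Myof*, *Cd9* and *Capn3*, and every array probe that the platform annotation gives to one of them was taken. Named probes were found for 8 of the 10 genes, 15 probes of 25697 on the array, while *Cdh15* and *Myof* were not analysed here. C2C12 is a mouse skeletal myoblast line, and ZBED6 is a transposon-derived transcription factor known as a repressor of *Igf2*. There were 12 Illumina MouseRef-8 BeadChip arrays in 4 groups of 3: Zbed6-silenced cells (a pool of siRNAs against *Zbed6*) and control cells (a pool of scrambled siRNAs), each taken 48 h and 96 h after transfection. All cells were kept in growth medium with fetal bovine serum, and the labels describe no change to differentiation medium for these samples. All groups are the same cell line, and the replicates are labelled biological. No probe used here is named *Zbed6*, so its silencing was not measured on these arrays.

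Between 47% and 48.9% of the probes were detected per array. The correlation within a group was at least 0.9925, and between groups it reached 0.9928. Of 9 markers of the muscle lineage on the array, *Myod1*, *Des*, *Myog*, *Myl1*, *Acta1*, *Ckm* and *Actc1* were detected on all 12 arrays, and *Myf5* and *Pax7* on none.

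Skeletal myoblasts recognise each other, align, adhere and then fuse into multinucleated fibers. Cadherins hold the opposing cells together through calcium-dependent contacts, immunoglobulin-type molecules such as NCAM and VCAM-1 add contacts between cells, and integrins tie cells to laminin and other matrix. The joining of membranes and their later repair depend on tetraspanins and on ferlins, large calcium-sensing membrane proteins, and calpain 3 is a muscle protease linked to dysferlin. Mutations of human *DYSF* and *CAPN3* each cause a limb-girdle muscular dystrophy.

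A probe was kept if 3 or more of the 12 arrays detected it, that is, gave a detection p-value under 0.05. Of the 15 probes 14 were kept, and they cover all 8 measured genes. The dropped one, the dimmest of 3 *Dysf* probes, was detected on 0 arrays. Probes of a gene are numbered here from the brightest. Signals are log2 normalized intensities, and a difference is a difference of group means on that scale. Levels of different probes are not comparable, because each probe has its own brightness. Adjusted p-values come from limma with the Benjamini-Hochberg correction over all 13095 kept probes, and a change was called at 0.05.

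The upstream sequences of *Dysf* and *Capn3* are shown first because these genes had the largest differences among the members at 96 h. Promoter entries in RefSeq (GRCm38.p6) were found for 3 of the 8 measured genes, *Dysf* and *Capn3* with 2 starts each and *Cd9* with 1. The 250 bases before a start are given 5′ to 3′, in lower case. Capitals mark matches to CANNTG, the E-box bound by the MyoD family, and to GCTCG, the core of the known ZBED6 site, each searched on both strands. The window of the second *Dysf* start lies at chr6:84019136-84019385 on the plus strand, and that of the first is not shown. The *Capn3* windows lie at chr2:120463343-120463592 and chr2:120476659-120476908, also on the plus strand. The windows of the second *Dysf* and second *Capn3* starts lie inside the annotated genes. The first *Dysf* window, chr6:84008348-84008597, overlaps the annotated gene as well, which begins at 84008361.
Dysf start 2: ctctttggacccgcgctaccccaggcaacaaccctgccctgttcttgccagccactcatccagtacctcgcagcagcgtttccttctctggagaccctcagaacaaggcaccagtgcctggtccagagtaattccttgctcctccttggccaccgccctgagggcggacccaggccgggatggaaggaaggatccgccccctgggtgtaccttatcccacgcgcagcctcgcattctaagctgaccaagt
Capn3 start 1: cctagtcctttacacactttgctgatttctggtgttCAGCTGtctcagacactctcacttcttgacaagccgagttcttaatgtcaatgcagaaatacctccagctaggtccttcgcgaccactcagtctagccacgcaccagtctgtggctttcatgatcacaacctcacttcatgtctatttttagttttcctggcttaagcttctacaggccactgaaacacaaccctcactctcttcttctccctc
Capn3 start 2: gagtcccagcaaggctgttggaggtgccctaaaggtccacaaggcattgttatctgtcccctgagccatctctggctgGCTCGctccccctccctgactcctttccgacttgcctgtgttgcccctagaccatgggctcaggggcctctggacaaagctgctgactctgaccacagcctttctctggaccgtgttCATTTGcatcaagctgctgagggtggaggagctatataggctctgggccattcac
CANNTG was found once before each *Capn3* start and 0 times before either *Dysf* start. The match at the first *Capn3* start reads CAGCTG, a form that is itself a CANNTG, and begins 214 bases before the start. GCTCG was found 172 bases before the second *Capn3* start and at no other start of these 2 genes. The *Cd9* window, not shown, held 3 CANNTG matches, 1 of them CAGCTG, and 1 GCTCG, 17 bases before the start. Of 32851 promoter windows of the same length, 66.2% hold CANNTG, 13% hold CAGCTG and 24.9% hold GCTCG, so these letters are common. A match is a description of the sequence, and binding was not measured here.

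At 48 h no member was called by its brightest probe. In the limma fit 0 of 8 genes passed, against 7.51% of all 8858 genes called. The median difference over the 8 genes was -0.08, against 0.001 over all genes. Among the 14 kept probes, 1 was called, against 6.93% of all kept probes. This was the third probe of *Cdh2* (ILMN_2605503), the gene of N-cadherin, a calcium-dependent adhesion molecule of myoblasts. It read 5.34, 5.04 and 5.15 in Zbed6-silenced cells and 5.82, 5.89 and 5.70 in control cells at 48 h. All 3 silenced arrays lay below all 3 control arrays, and no silenced array detected it. Only the 3 control arrays of 48 h detected the probe, so it passed the filter through the group where it was high. The filter thus favoured a difference in this direction, and the call is no independent support for a change. The limma test of the full difference, -0.63, used the undetected silenced values (adjusted p = 0.018). As a bound that was not itself tested, the probe's signal was at least 1.34-fold lower in silenced cells. This bound sets the control mean against the lowest signal of a detected probe on each silenced array. With the authors' processed values the difference was -0.06 and the call was lost (adjusted p = 0.13).

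The other *Cdh2* probes were not called at 48 h. The brightest (ILMN_1247861) read 8.95, 8.65 and 8.79 in silenced cells and 9.06, 9.03 and 9.0 in control cells. Its groups did not overlap, with a difference of -0.23 ± 0.10 (SE, adjusted p = 0.19). Probe 2 differed by -0.18 (adjusted p = 0.26) and probe 4 by -0.52 (adjusted p = 0.065). The call of the third probe was lost when either of control replicates 1 and 2 or either of silenced replicates 2 and 3 was left out (adjusted p = 0.05 to 0.069). At 96 h probes 1 and 2 differed by -0.01 and 0.13 and were not called, and probes 3 and 4 were detected on 0 arrays. *Cdh2* lies at chr18:16588877-16809246.

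At 96 h, 5 of 8 members were called, and 0 to 3 when 1 array was left out. Leaving out 1 array also lowered the share of all kept probes called, from 5.76% to between 0.55% and 3.54%. *Dysf*, *Capn3*, *Ncam1* and *Itga7* rose in Zbed6-silenced cells by 1.3- to 1.66-fold, and *Vcam1* fell to 0.722 of the control level. Against these 4 higher and 1 lower of 8 genes, 2.83% of all genes were called higher and 2.82% lower, 5.66% in all. Of the 14 kept probes 6 were called, against 5.76% of all kept probes. The median difference over the 8 genes was 0.33, against 0.005 over all genes. The members were chosen with earlier results of these data known, so this count describes the list and is no independent test of it.

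**Figure D1:**
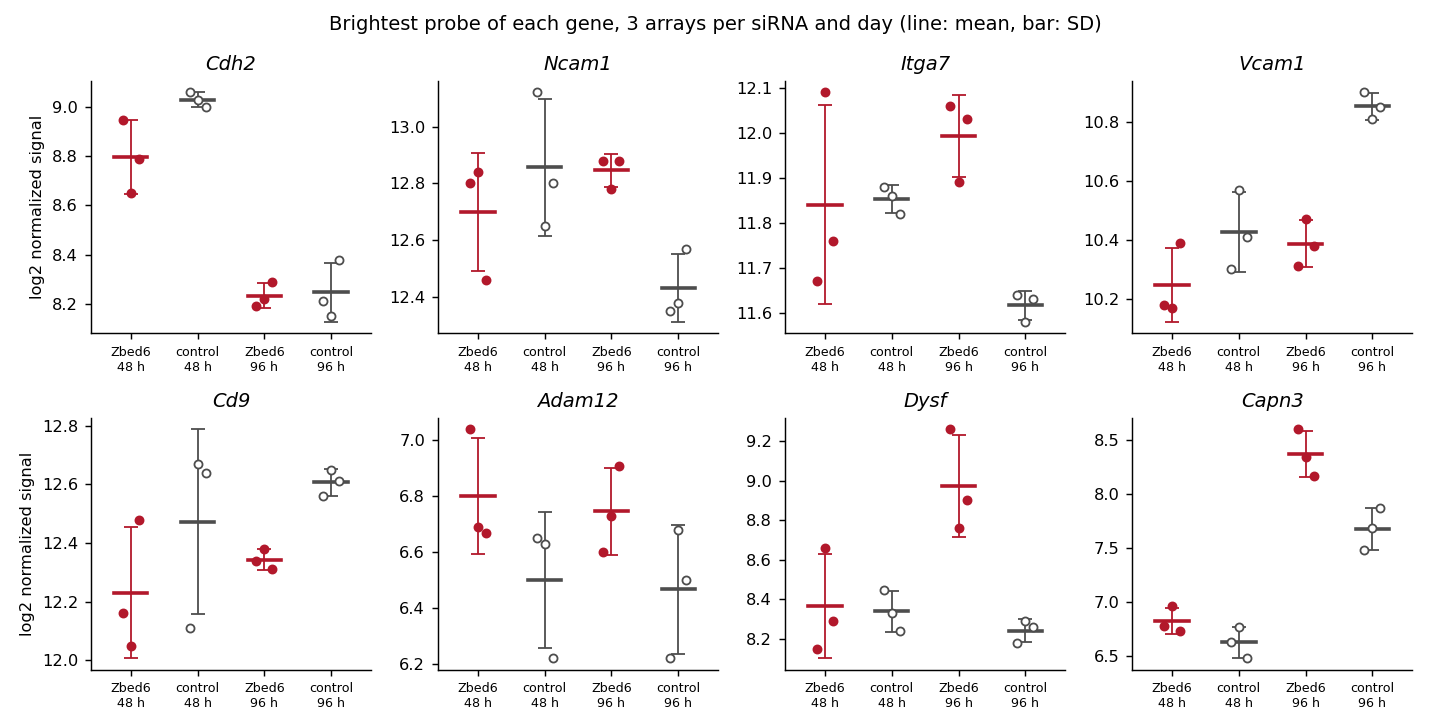
Log2 normalized signal of the brightest probe of each of the 8 measured genes (vertical axis, own scale per panel) on each array, in Zbed6-silenced cells (filled) and control cells (open) at 48 h and 96 h. Lines are means and bars SD (n = 3). At 96 h the silenced and control points do not overlap for *Ncam1*, *Itga7*, *Vcam1*, *Cd9*, *Dysf* and *Capn3*.

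**Figure D2:**
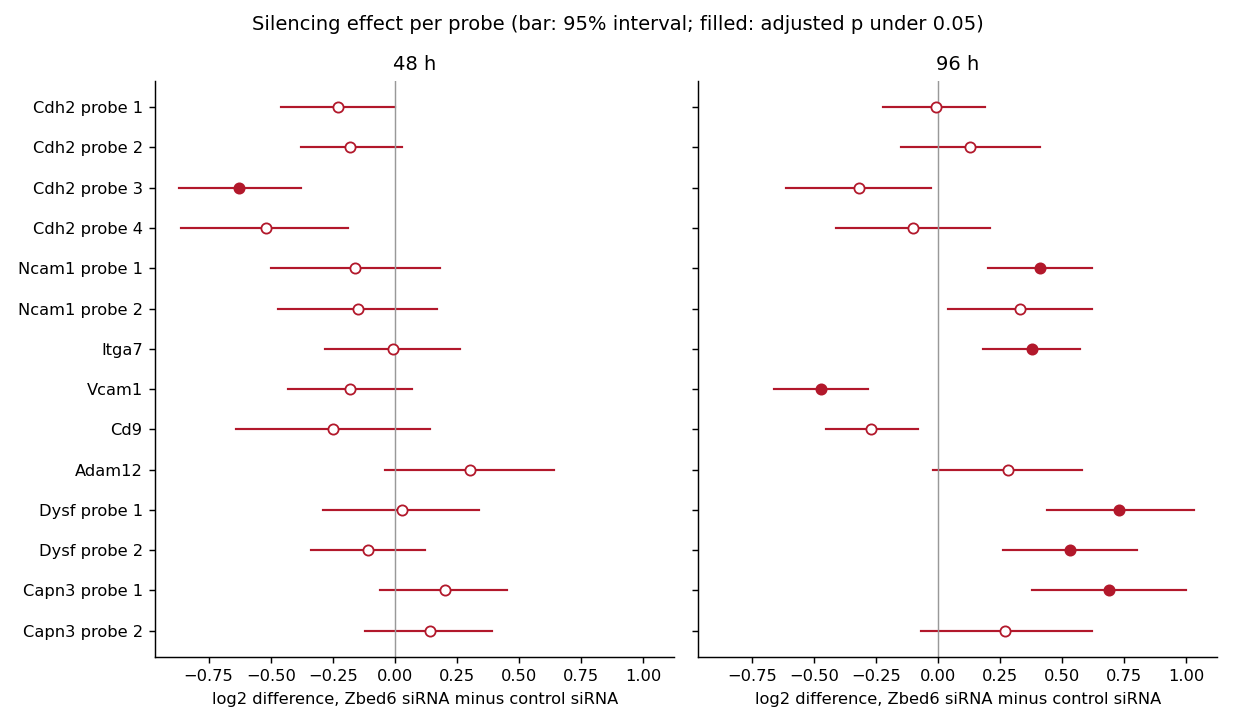
Difference of log2 signal, Zbed6 siRNA minus control siRNA, for the 14 kept probes at 48 h (left) and 96 h (right), with 95% intervals from limma. Filled points have an adjusted p under 0.05, 1 probe at 48 h and 6 probes at 96 h.

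*Dysf* encodes dysferlin, a ferlin of the muscle surface membrane needed for its resealing, and lies at chr6:84008361-84211060. Its brightest probe (ILMN_2674315) read 9.26, 8.76 and 8.90 in silenced cells and 8.18, 8.29 and 8.26 in control cells at 96 h. Every silenced array was above every control array, a difference of 0.73 ± 0.13 (SE), or 1.66-fold (adjusted p = 0.023). The second probe (ILMN_3134844) read 8.90, 8.55 and 8.58 in silenced cells and 8.24, 8.0 and 8.20 in control cells. It rose by 0.53 ± 0.12 (SE), or 1.45-fold (adjusted p = 0.04), so that both measurable probes of the gene moved the same way. At 48 h the same probes differed by 0.03 and -0.11, with overlapping groups.

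*Capn3* encodes calpain 3, the calpain protease found mainly in skeletal muscle, and lies at chr2:120463593-120504919. Its brightest probe (ILMN_2867771) read 8.60, 8.34 and 8.17 in silenced cells and 7.48, 7.69 and 7.87 in control cells at 96 h. The groups were apart, with a difference of 0.69 ± 0.14 (SE), or 1.61-fold (adjusted p = 0.031). The second, dimmer probe (ILMN_2695626) read 6.07, 5.95 and 5.93 in silenced cells and 5.63, 5.42 and 6.07 in control cells. There the groups overlapped, with a difference of 0.27 (adjusted p = 0.3). At 48 h the probes differed by 0.20 and 0.14, and neither was called.

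Among the adhesion molecules, *Ncam1*, the gene of the neural cell adhesion molecule that myoblasts also carry, lies at chr9:49502129-49799393. Its brightest probe (ILMN_2722864) read 12.88, 12.78 and 12.88 in silenced cells and 12.35, 12.38 and 12.57 in control cells at 96 h. The groups did not overlap, and the rise was 0.41 ± 0.09 (SE), or 1.33-fold (adjusted p = 0.041). The second probe differed by 0.33, with overlapping groups (adjusted p = 0.15).

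*Itga7* encodes the alpha chain of the main laminin-binding integrin of skeletal muscle and lies at chr10:128933421-128958286. Its probe (ILMN_1257880) read 12.06, 11.89 and 12.03 in silenced cells and 11.64, 11.58 and 11.63 in control cells at 96 h. The 3 control arrays lay close together and below all silenced arrays, a rise of 0.38 ± 0.09 (SE), or 1.3-fold (adjusted p = 0.042). At 48 h the difference was -0.01, and the silenced arrays, at 11.67, 12.09 and 11.76, lay on both sides of the control arrays.

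*Vcam1* encodes an immunoglobulin-type ligand of alpha4 integrins and lies at chr3:116110020-116129688. It was the one member called lower. Its probe (ILMN_2778655) read 10.31, 10.47 and 10.38 in silenced cells and 10.90, 10.81 and 10.85 in control cells at 96 h. All silenced arrays were below all control arrays, by 1.38-fold on average (log2 difference -0.47 ± 0.09 SE, adjusted p = 0.024). At 48 h the difference was -0.18 and the groups overlapped (adjusted p = 0.33).

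The remaining 3 members were not called by their brightest probe at either time. *Cd9*, a tetraspanin known in mice for its part in sperm and egg fusion and also present on myoblasts, read 12.34, 12.38 and 12.31 in silenced cells and 12.56, 12.65 and 12.61 in control cells at 96 h. Its groups did not overlap, with a difference of -0.27 ± 0.08 (SE, adjusted p = 0.085). It was called lower under 4 of 11 alternatives, with adjusted p = 0.014 to 0.043 there. *Adam12*, a membrane metalloprotease expressed by fusing myoblasts, differed by 0.30 at 48 h (adjusted p = 0.24) and 0.28 at 96 h (adjusted p = 0.23), both with a 95% interval that includes 0. The brightest *Cdh2* probe differed by -0.01 at 96 h (95% interval -0.22 to 0.19). Among all kept probes of the members, the silenced and control arrays did not overlap for 8 of 14 at 96 h and 5 of 14 at 48 h, against 31.1% and 32.2% of all kept probes. For a single probe, an exact permutation test of 3 against 3 arrays cannot give a two-sided p below 0.1.

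Each of the 96 h calls was lost on leaving out some arrays, with the difference kept in direction. Calls over all kept probes fell as well, from 754 to between 72 and 463. *Ncam1* (adjusted p = 0.054 to 0.14), *Itga7* (0.069 to 0.13) and the second *Dysf* probe (0.059 to 0.1) were lost without any 1 of the 6 arrays. *Vcam1* passed only without silenced replicate 3 (adjusted p = 0.048) and otherwise reached 0.055 to 0.092. *Capn3* was lost without control replicates 1 and 2 (0.1 and 0.076) and silenced replicates 1 and 2 (0.08 and 0.072). The brightest *Dysf* probe was lost without any 1 of the control replicates (0.085, 0.058 and 0.06) and passed without any 1 of the silenced ones.

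Marker genes also differed at 96 h. Of 7 measured markers of the muscle lineage, *Ckm*, the muscle creatine kinase, rose by 0.81 (adjusted p = 0.015) and *Actc1*, cardiac alpha actin, by 0.33 (adjusted p = 0.047) in silenced cells, and the other 5 were not called. The summed signal of this list ran from 1.32e+05 to 1.34e+05 in silenced cells and from 1.21e+05 to 1.27e+05 in control cells. Of 4 measured fibroblast markers *Pdgfra* fell by 0.61 (adjusted p = 0.038), and the list summed to between 2.35e+03 and 2.8e+03 in silenced cells and between 2.73e+03 and 3.04e+03 in control cells. At 48 h 1 of the 4 was called lower as well, and the median over the list was -0.41, against -0.25 at 96 h. Of the 7 muscle markers 0 were called at 48 h, with a median of 0.04, against 0.15 at 96 h. The 4 adipocyte markers on the array were detected on 0 arrays, and the leukocyte markers *Ptprc*, *Adgre1* and *Lyz2*, the neural and glial markers *Rbfox3*, *Snap25* and *Gfap* and the endothelial and epithelial markers *Pecam1*, *Cdh5*, *Kdr*, *Krt18* and *Krt5* were likewise not detected in any group. *Cd3e* and *Krt8*, seen on all arrays, were not called. *Mbp*, also on the neural and glial list, was detected on all 3 silenced arrays at 96 h. In every other group it was detected on some but not all arrays, and it was not called. The part of these shifts in the members' differences was not tested. In RNA from whole cultures, a change in the share of cells of one kind and a change of RNA per cell cannot be told apart.

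Time was compared next, within each siRNA. Between 48 h and 96 h, 3 of 8 members changed in silenced cells, 2 higher and 1 lower, against 27.3% of all genes called, 15.2% higher and 12.1% lower. In control cells 4 of 8 changed, 2 higher and 2 lower, against 31.8% of all genes, 17% higher and 14.8% lower. Of the 14 kept probes 8 were called in silenced cells and 8 in control cells, against 28.3% and 32.2% of all kept probes. The 8 under either siRNA include *Cdh2* probes 3 and 4, which no array of 96 h detected and which were kept only through arrays of 48 h. No silenced array detected probe 3 on either day. *Capn3* rose and *Cdh2* fell in both. *Dysf* rose in silenced cells, and in control cells *Vcam1* rose and *Ncam1* fell.

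The brightest *Capn3* probe read 8.60, 8.34 and 8.17 at 96 h and 6.78, 6.96 and 6.73 at 48 h in silenced cells, a rise of 1.55 ± 0.13 (SE), or 2.92-fold (adjusted p = 3.4e-06). In control cells it read 7.48, 7.69 and 7.87 at 96 h and 6.63, 6.77 and 6.48 at 48 h, a rise of 1.06 ± 0.13 (SE), or 2.08-fold (adjusted p = 9.1e-05). The days were far apart under either siRNA. The second probe rose by 0.54 in silenced cells (adjusted p = 0.012) and by 0.40 in control cells (adjusted p = 0.045), where the days overlapped and the call was lost without any 1 of 10 of the 12 arrays (adjusted p up to 0.17, without control replicate 3 of 96 h). That call was also lost under 7 of 8 processing alternatives, with a difference as low as 0.05 with the authors' processed values.

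The brightest *Cdh2* probe read 8.19, 8.22 and 8.29 at 96 h and 8.95, 8.65 and 8.79 at 48 h in silenced cells, a fall to 0.675 of the earlier level (log2 difference -0.57, adjusted p = 0.00064). In control cells it read 8.21, 8.15 and 8.38 at 96 h and 9.06, 9.03 and 9.0 at 48 h, a fall to 0.581 (log2 difference -0.78, adjusted p = 6.5e-05). Probe 2 was also called lower at 96 h, with log2 differences of -0.38 in silenced cells and -0.69 in control cells. Probes 3 and 4 were detected on 0 arrays at 96 h and on all 3 control arrays at 48 h. In control cells their signals were at least 1.42- and at least 1.36-fold lower at 96 h. Probe 3 was kept only through the 3 control arrays of 48 h, and probe 4 only through arrays of 48 h. The filter thus favoured a fall of either probe, and their calls are no independent support for one. In silenced cells probe 3 was detected on 0 and probe 4 on 1 of 3 arrays at 48 h, so that their differences have no readable size. In silenced cells, the call of probe 2 was lost without silenced replicate 1 of 48 h or silenced replicates 1 or 2 of 96 h (adjusted p = 0.064 to 0.077), and that of probe 4 without silenced replicates 1 or 3 of 48 h or 1 or 2 of 96 h (0.05 to 0.1).

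*Dysf* was called over time in silenced cells and not in control cells. In silenced cells its brightest probe read 9.26, 8.76 and 8.90 at 96 h and 8.15, 8.66 and 8.29 at 48 h, a rise of 0.61 ± 0.14 (SE, adjusted p = 0.0066). In control cells it read 8.18, 8.29 and 8.26 at 96 h and 8.45, 8.33 and 8.24 at 48 h, a difference of -0.10 ± 0.14 (SE, adjusted p = 0.64). The second probe gave 0.60 ± 0.11 (SE, adjusted p = 0.0016) in silenced cells and -0.05 ± 0.11 (SE, adjusted p = 0.78) in control cells.

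*Vcam1* rose in control cells, which read 10.90, 10.81 and 10.85 at 96 h and 10.30, 10.57 and 10.41 at 48 h (0.43 ± 0.09 SE, adjusted p = 0.0047). In silenced cells its difference was 0.14, with overlapping days (adjusted p = 0.3). *Ncam1* fell in control cells, which read 12.35, 12.38 and 12.57 at 96 h and 13.12, 12.65 and 12.80 at 48 h (-0.42 ± 0.13 SE, adjusted p = 0.026). In silenced cells its difference was 0.15 (adjusted p = 0.42). The *Ncam1* call was lost without control replicate 1 of 48 h (adjusted p = 0.11) or control replicates 1 or 2 of 96 h (0.084 and 0.079). *Itga7*, *Cd9* and *Adam12* were not called over time, although without silenced replicate 2 of 48 h *Itga7* passed in silenced cells (adjusted p = 0.042) and in control cells (0.038). Comparisons that use the same arrays are not independent of each other.

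**Figure D3:**
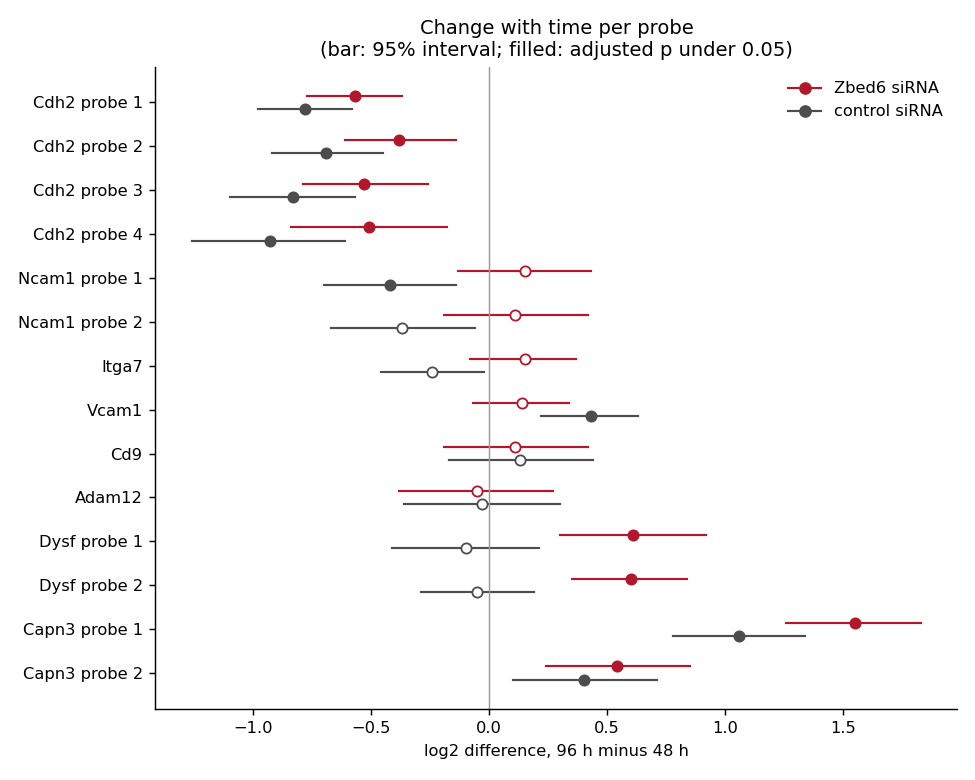
Difference of log2 signal, 96 h minus 48 h, for the 14 kept probes in Zbed6-silenced cells (red, upper) and control cells (grey, lower), with 95% intervals from limma. Filled points have an adjusted p under 0.05. *Cdh2* probes 1 and 2 lie left of 0 and the *Capn3* probes right of 0 under either siRNA, *Cdh2* probes 3 and 4 were detected on 0 arrays at 96 h, and the *Dysf* probes lie at 0.60 and 0.61 in silenced cells and at -0.05 and -0.10 in control cells.

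Whether the silencing effect itself differed between the days was tested as an interaction. By the brightest probes 0 of 8 members passed in limma, against 3.05% of all genes. Of the 14 kept probes 1 passed, against 2.93% of all kept probes. This was the second *Dysf* probe, whose silencing effect at 96 h exceeded that at 48 h by 0.64 ± 0.16 (SE, adjusted p = 0.048). The brightest *Dysf* probe gave 0.71 ± 0.20 (SE, adjusted p = 0.07), and passed without silenced replicate 2 of 48 h (adjusted p = 0.04). *Ncam1* gave 0.57 (adjusted p = 0.097), *Capn3* 0.49 (0.15), *Itga7* 0.39 (0.15) and *Vcam1* -0.29 (0.23). For these genes a difference between the days was therefore not shown, although they were called at 96 h and not at 48 h. The call of the second *Dysf* probe held without silenced replicate 2 of 48 h (0.047) and was lost without any 1 of the other 11 arrays (0.062 to 0.11).

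Other genes of adhesion and fusion were taken in 8 lists. At 48 h, 3 of their 85 measured genes were called (3.53%, against 7.51% of all genes), and the medians of the lists ran from -0.12 to 0.07. *Itgb1bp2*, the muscle integrin-binding protein melusin, rose by 0.64 (adjusted p = 0.026), *Jam3*, a junctional adhesion molecule, rose by 0.61 (adjusted p = 0.017), and *Itga11*, a collagen-binding integrin chain, fell by 0.86 (adjusted p = 0.0077). At 96 h, 2 of the 85 were called (2.35%, against 5.66% of all genes). They were 1 that rose and 1 that fell among the 16 measured genes of integrins and focal adhesion. *Pxn*, the focal adhesion adaptor paxillin, rose by 0.35 (adjusted p = 0.047). *Lims1*, an adaptor of integrin-linked kinase, was detected on 0 silenced and 2 of 3 control arrays. Its tested difference was -0.54 (adjusted p = 0.038), and as a bound that was not itself tested it fell by at least 1.07-fold.

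The other lists had 0 calls at 96 h. They covered 6 cadherins and catenins, 9 immunoglobulin adhesion molecules and fusion receptors, 9 tetraspanins and partners, 6 ADAM proteases, 16 ferlin and membrane repair partners, 8 genes of the calpain system and 15 of actin remodelling. Their medians ran from -0.16 for the ferlin and membrane repair partners to 0.07 for actin remodelling. *Cav3*, the muscle caveolin, differed by 0.66 (adjusted p = 0.053), *Mymk*, the fusion protein myomaker, by 0.46 (adjusted p = 0.064), *Trim72*, the membrane repair protein MG53, by 0.30 (adjusted p = 0.064), and *Ehd2*, a membrane-shaping ATPase, by -0.62 (adjusted p = 0.058).

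**Figure D4:**
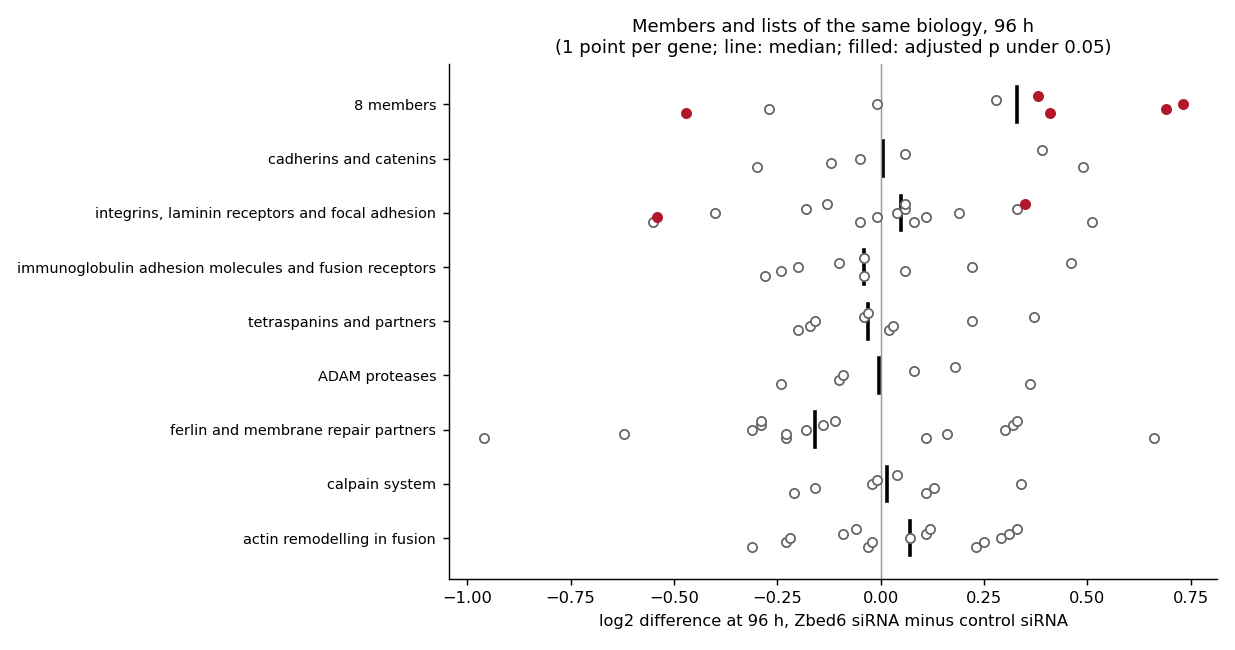
Difference of log2 signal at 96 h, Zbed6 siRNA minus control siRNA (horizontal axis), for the brightest probe of each of the 8 measured members and of the genes of 8 lists of the same biology. Lines are medians, and filled points have an adjusted p under 0.05, 5 among the members and 2 among the integrins and focal adhesion genes.

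Over time 26 of the 85 genes were called in silenced cells (30.6%, against 27.3% of all genes) and 32 in control cells (37.6%, against 31.8% of all genes). *Mymk* fell by 0.37 in silenced cells (adjusted p = 0.047) and by 0.63 in control cells (adjusted p = 0.003). *Cav3* and *Trim72* rose in silenced cells, by 0.70 (adjusted p = 0.0059) and 0.35 (adjusted p = 0.019). In control cells the differences were 0.31 (adjusted p = 0.16) and -0.01 (adjusted p = 0.97). The interaction also tests whether the change with time differed between the siRNAs. It called 2 of the 85 genes (2.35%, against 3.05% of all genes) and 0 of the 16 ferlin and membrane repair partners. For *Cav3* and *Trim72* a difference between the siRNAs in the change with time was therefore not shown. Of the 16 ferlin and membrane repair partners, 4 rose and 1 fell in silenced cells, and 4 rose and 3 fell in control cells, to be read against the same shares of all genes. Of the 16 integrin and focal adhesion genes, *Itga6*, a laminin-binding chain, fell by 0.96 in silenced cells (adjusted p = 1.5e-05) and by 0.69 in control cells (adjusted p = 0.00022), and *Itga11* rose by 1.21 (adjusted p = 6.4e-05) and 0.91 (adjusted p = 0.00063). Among the tetraspanins, *Tspan9* fell by 0.84 in silenced cells (adjusted p = 0.00051) and by 1.39 in control cells (adjusted p = 1.2e-05), and *Cd82* fell by 0.40 and 0.39 (adjusted p = 0.0054 and 0.0055). Lineage markers moved over time too. Of 7 measured muscle markers, 3 were called lower and 0 higher in silenced cells, and 2 lower and 0 higher in control cells. The medians over these markers were -0.06 and -0.16. Among the 7, *Ckm* fell by 0.73 in silenced and 1.21 in control cells and *Actc1* by 0.54 and 0.63. All 4 measured fibroblast markers were called under either siRNA, 3 higher and 1 lower, with a median of 0.71 in silenced and 0.51 in control cells. The summed signal of the list fell all the same. In silenced cells it ran from 4.54e+03 to 4.56e+03 at 48 h and from 2.35e+03 to 2.8e+03 at 96 h. In control cells it ran from 4.12e+03 to 4.59e+03 at 48 h and from 2.73e+03 to 3.04e+03 at 96 h. *Pdgfra* was detected on no silenced array at 48 h, so its change there has no readable size. *Col1a1* rose by 1.4 in silenced and 0.68 in control cells and *Dcn* fell by 1.08 and 0.79. The leukocyte marker *Cd3e* fell by 0.56 in silenced cells (adjusted p = 0.013) and differed by -0.16 in control cells (adjusted p = 0.43). Their part in the members' changes was not tested.

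The profiles of the called members over the 12 arrays were compared with those of all other genes, after centring each gene on its own mean. The measure is the root mean square difference of log2 signal, over 8857 genes. For *Dysf*, whose own spread over arrays was 0.33, the most alike were *Wfs1* (0.13) and *Reep1* (0.15), and for *Capn3*, with a spread of 0.71, *Mustn1* (0.13) and *Fam78a* (0.17). *Cdh2* (spread 0.36) was closest to *Mfsd11* (0.087) and *Lmf1* (0.092). For *Ncam1* (spread 0.22) these were *Cdipt* (0.081) and *Dtx2* (0.088), for *Itga7* (spread 0.17) *Cdkn1a* (0.085) and *Atp9b* (0.086), and for *Vcam1* (spread 0.24) *Nusap1* (0.05) and *Vmp1* (0.061). These are descriptions over 12 arrays, and with so many genes compared some profiles lie close to any member.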

How the data were processed

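Total RNA of 12 C2C12 cultures was hybridized to Illumina MouseRef-8 v2 arrays. The authors deposited raw bead intensity per probe, without background subtraction or normalization. The deposited table pairs every intensity with its detection p-value. The authors' processed values, on a log2-like scale and made with lumi, were deposited too, with their exact transformation not given in the sources used here. After removal of probe means, each of their columns correlated with its own array at 0.876 or higher and with any other at 0.719 or lower, and their medians were 7.845 to 7.851. They served as an alternative only.

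Intensities were corrected by normexp on the detection p-values (neqc, limma 3.58.1, R 4.3.3) with an offset of 16, quantile normalized and log2 transformed. Names came from the platform annotation, with 23978 probes of 1 symbol and 1719 of none, and 0 symbols changed against RefSeq. Of 25697 probes, 13095 were kept, those detected (p-value under 0.05) by 3 or more of the 12 arrays. Each probe was tested, and 1 value for a gene is that of its brightest kept probe.

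Silencing was tested within a day on 6 arrays, after the study's methods, and time and interaction in 1 fit of 4 group means on 12 arrays. The Benjamini-Hochberg correction ran over all kept probes, and the threshold was 0.05. Named genes were the members, up to 3 genes of smallest p per list and the 2 closest profiles per called member, with the marker genes beside them. The script was tested on simulated data. The members, lists and tests were chosen with earlier results of these data known. Slides are not given in the sources used here, and the number of arrays limits the precision. If replicate cultures were not independent, p-values measure only the spread between these arrays.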

Additional observations from a re-analysis of the deposited data

Results flagged for a closer look

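The second *Dysf* probe passed the test of a difference in silencing effect between the days, narrowly. It was 0.53 at 96 h and -0.11 at 48 h on the log2 scale, a difference of 0.64 ± 0.16 (SE, adjusted p = 0.048 in limma). The call was lost without any 1 of 11 of the 12 arrays (adjusted p = 0.062 to 0.11), with median scaling (0.087) and without the filter on dim probes (0.061). The brightest *Dysf* probe gave 0.71 and did not pass (adjusted p = 0.07).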

How the results depend on the processing

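The number of members called by silencing depended on the processing more than the changes with time did. At 96 h it was 5 of 8 as reported, 3 without the filter on dim probes, 3 with the mean of a gene's probes, 1 with the replicate block and 4 to 6 under the other alternatives, and between 0 and 3 with 1 array left out. At 48 h it was 0, except 1 (*Cdh2*, -0.39, adjusted p = 0.041) with the mean of probes. That mean includes *Cdh2* probes 3 and 4, near the lowest detected signal. Probe 3 was kept only through the control arrays of 48 h, so this call is no independent support for a change. For the interaction it was 0, except 2 without background correction, 1 with an offset of 50, 1 with the mean of probes, 2 with a variance trend, and 0 to 1 with 1 array left out. In silenced cells 3 members changed with time under every alternative (3 to 4 with 1 array left out), and in control cells 3 to 5. These counts are to be read against the share of all probes or genes called under the same alternatives. That share was 2.8% to 13.2% at 48 h, 1.54% to 11.9% at 96 h and 1.03% to 7.27% for the interaction. Over time it was 13.6% to 32.9% in silenced cells and 15.4% to 38.7% in control cells. No called difference changed direction. The brightest *Dysf* probe at 96 h passed under all 11 alternatives, with a difference of 0.40 with the authors' processed values. *Capn3* was lost with the authors' processed values (0.28, adjusted p = 0.051), without the filter (0.057), with the mean of probes (0.061) and with the block (0.058). *Ncam1* was lost without the filter (0.053), with the mean of probes (0.066), with all 12 arrays in 1 fit (0.071) and with the block (0.069), *Itga7* with median scaling (0.053) and the block (0.074), *Vcam1* with the block (0.054), and the second *Dysf* probe with the authors' values (0.27, adjusted p = 0.058) and without the filter (0.067). *Cd9* passed without background correction (0.036), with an offset of 50 (0.043), with the authors' values (0.014) and with a variance trend (0.014). The second *Dysf* probe's interaction was lost with median scaling (0.087), without the filter (0.061) and with the block (0.071). The cause of these losses was not tested.

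Same-numbered arrays did not deviate together (correlations from -0.17 to 0.18), so no pairing by number was seen. With 3 arrays per group such correlations cannot exclude a pairing. With the replicate block the members called were 0 at 48 h, 1 at 96 h, 3 and 4 over time in silenced and control cells, and 0 for the interaction, and the probes called fell to 567, 353 and 224 for the silencing effects at 48 h and 96 h and the interaction.

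Over all kept probes, 908 were called at 48 h, 754 at 96 h and 384 for the interaction. In the same order the counts were 1612, 1487 and 816 without background correction, 1538, 1412 and 771 with an offset of 50, and 1712, 1564 and 952 with a variance trend. With all 12 arrays in 1 fit 1731 were called at 48 h, without the filter 397 at 96 h, and with median scaling 555 at 48 h and 135 for the interaction. The interaction had 778 calls with the authors' processed values and 643 with the stricter filter. With 1 array left out the ranges were 135 to 515, 72 to 463 and 63 to 368. Median scaling moved the share of calls that were higher to 59.7%, against 49.1%, at 96 h, and over time to 64.5%, against 49.8%, in silenced cells and to 64.2%, against 49.6%, in control cells. *Cdh2* probes 3 and 4 and the second *Capn3* probe lie near the lowest detected signal, log2 5.26 to 5.39, which limits their differences.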
